A study of Homo sapiens with 7 samples.

Results

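The genes that build cholesterol and fatty acids were followed in BHT-101, a human anaplastic thyroid cancer cell line, and in clones derived from it in which ASH1L, the gene of a Trithorax-type histone H3 methyltransferase, is cut short by stop codons. The group holds 31 genes, listed by pathway membership with earlier results of these data known. All 31 were among the 13142 genes of the deposited table, and all 31 were among the 11154 genes that were tested, those with a log2 RPKM above 0 in at least 3 of the 7 libraries. RPKM is reads scaled to gene length and to library size, so levels are per length and can be set beside each other between genes. The list counts 3 genes of acetyl-CoA supply, 6 mevalonate enzymes, 11 sterol ring enzymes, 4 regulators, 1 sterol carrier and 6 fatty acid enzymes.

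The ASH1L knockout (KO) arm consists of 4 clones with 1 library each, and the wild-type (WT) arm of 3 biological replicates of the parental cells, WT1 to WT3. Per the labels, KO1 ends ASH1L after residue 413 and KO2 after residue 610, KO3 does so after residue 2129, and these 3 carry the stop in both copies. KO4 has stops after residues 2169 and 2174. KO3 and KO4 are called late-stop and KO1 and KO2 early-stop clones here. All cells were grown in DMEM with fetal bovine serum, which itself carries lipids. Each clone is 1 line, and no clone with intact ASH1L was analysed, so loss of ASH1L and differences between single-cell clones and the parental cells cannot be told apart.

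Cholesterol and fatty acids start from the same building block, cytosolic acetyl-CoA. The mevalonate pathway joins it into isoprenoid units, squalene is closed into a sterol ring, and a series of enzymes trims that ring to cholesterol, while fatty acid synthase lengthens chains that desaturases and elongases then modify. Transcription of most of these genes is driven by the SREBP factors, which SCAP carries from the endoplasmic reticulum for activation and which the INSIG proteins hold back when sterols are plentiful, so the genes are known for moving together when sterol supply changes.

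The table holds no read totals and the depth of the libraries was not recovered, so counting error is unknown. The median log2 RPKM of the tested genes lay between 2.81 and 2.92 in the clones and at 2.89 in each of the 3 WT libraries. ASH1L had a log2 RPKM of 2.69, 2.54, 2.42 and 3.74 in KO1 to KO4, against 3.34, 3.30 and 3.22 in WT1 to WT3, so KO4 lay above and the other clones below every WT library. Of the epithelial markers, the keratins KRT7, KRT8, KRT18 and KRT19 lay between 5.13 and 7.79 over all libraries, the thyroid factor PAX8 was below 0 in every library, and NKX2-1, FOXE1, TG, TSHR and SLC5A5 were not among the genes analysed here. Of 6 adipocyte and hepatocyte markers none was in the table, of 5 endothelial markers 1, of 6 fibroblast markers 2 and of 8 leukocyte markers 3. The fibroblast marker LUM ranged from 4.21 to 5.85 in the clones and from 5.19 to 5.38 in WT. The T cell marker CD3D had -7.75, -0.96, -2.51 and -0.47 in KO1 to KO4, against 3.05, 3.29 and 3.39 in WT1 to WT3, while PTPRC and CD3E were not listed. KRT19 had 6.26, 7.79, 5.83 and 7.32 in the clones against 7.61, 7.50 and 7.21 in WT, KRT8 had 5.64, 7.42, 5.83 and 6.68 against 7.31, 7.20 and 7.07, and EPCAM had 1.71, 3.88, 3.19 and 1.85 against 2.95, 3.04 and 2.85. KO1 and KO3 were thus the lowest clones for KRT8 and KRT19, and KO1 and KO4 for EPCAM. KRT18 had 6.7, 7.37, 7.01 and 7.14 in KO1 to KO4 against 7.78, 7.72 and 7.61 in WT, again with KO1 and KO3 lowest. KRT7 differed, with 6.71, 6.23, 5.13 and 5.55 in KO1 to KO4 against 6.6, 6.38 and 6.22 in WT. For KRT7, KO1 was the highest of all libraries, and KO3 and KO4 were the lowest clones. The part of these markers in the results was not tested.

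Most of the pathway was expressed well above the typical gene. The median WT level of the 31 genes was 5.08 log2 RPKM, beside 2.89 over all tested genes, and 16 of them had a WT mean of at least 5. SQLE, the squalene epoxidase that commits squalene to sterols, and SCD, the desaturase that makes monounsaturated fatty acids, had the highest levels, with KO means of 8.66 ± 0.24 and 8.32 ± 0.38 and WT means of 8.48 ± 0.12 and 8.69 ± 0.15 (SD, n = 4 clones and 3 WT samples). TM7SF2, a sterol reductase, lay lowest, at -0.37 in KO1.

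The clones differed from each other more than the WT samples did, as genes in general did here. Across the 31 genes the median SD was 0.29 among clones and 0.10 among WT samples, against 0.30 and 0.10 over all tested genes. The clone SD was the larger in 30 of the 31 (96.8%), beside 90.4% of all tested genes. TM7SF2 varied most, with log2 RPKM of -0.37, 0.90, 1.5 and 0.39 in KO1 to KO4 against 0.01, 0.39 and 0.55 in WT1 to WT3. MVK, the mevalonate kinase, varied least, with 2.68, 2.95, 2.96 and 2.85 in the clones against 2.80, 2.77 and 2.75 in the WT samples. KO1 was the lowest clone for 12 genes (38.7%, beside 27.6% of all tested genes) and the highest for 2 (6.45%, beside 28.1%). KO2 was also the lowest for 12 (38.7%, beside 29.8%) and was the highest for 9 (29%, beside 28.4%). KO3 was the lowest for 4 (12.9%, beside 26.9%) and the highest for 12 (38.7%, beside 27.3%), and KO4 was the lowest for 3 (9.68%, beside 15.7%) and the highest for 8 (25.8%, beside 16.2%).

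**Figure D1:**
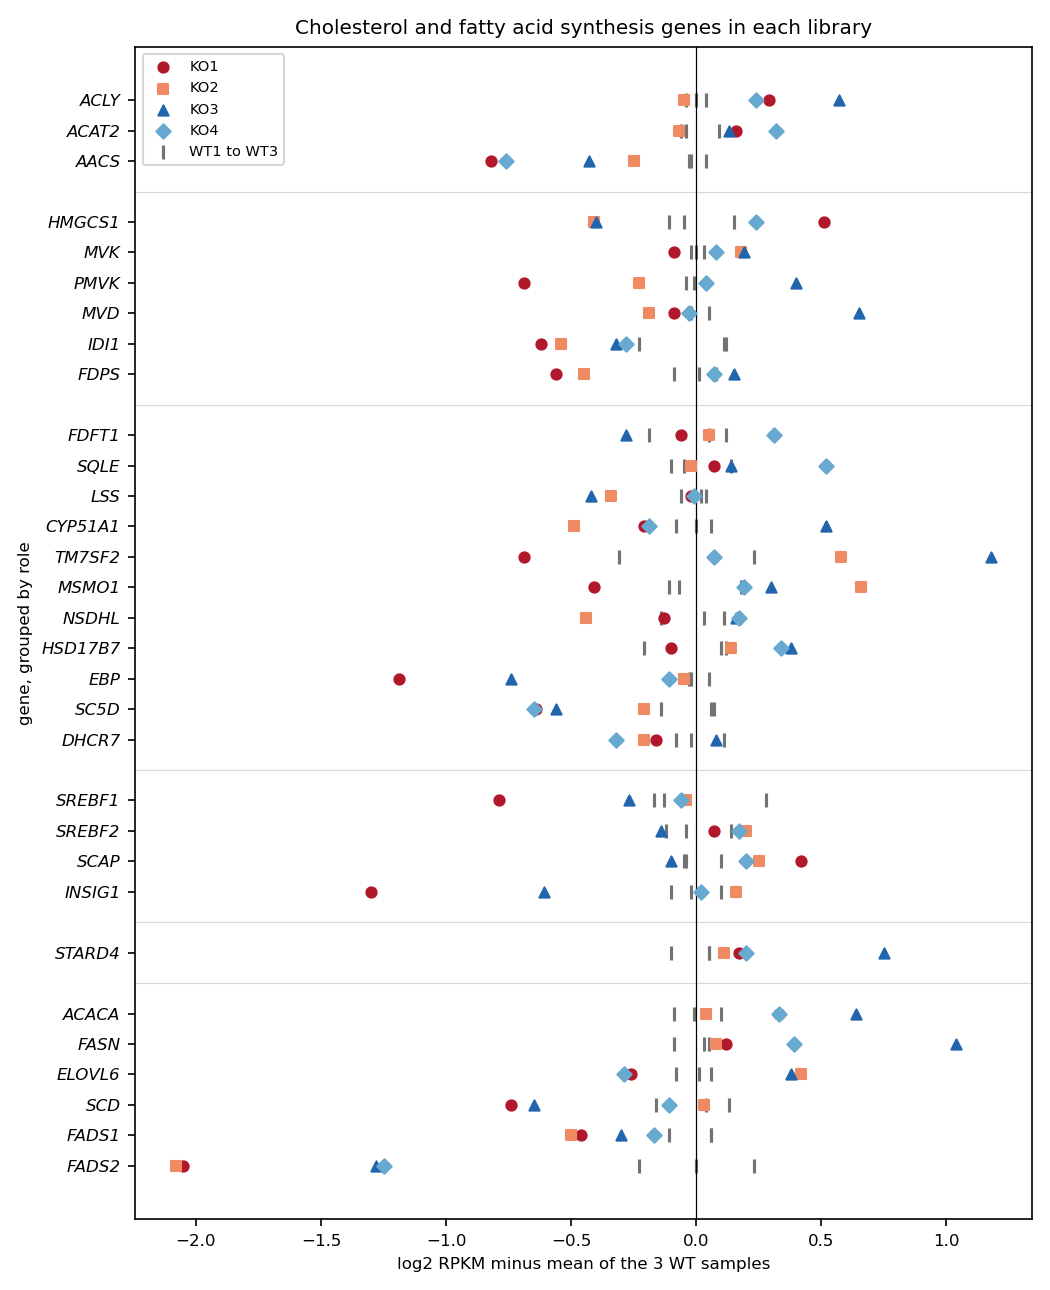
Log2 RPKM of each of the 31 genes (rows, grouped by role) minus the mean of the 3 WT samples (x axis, log2 units). Coloured symbols are the single libraries of KO1 to KO4 and grey ticks the WT samples; FADS2 is the one row with all 4 clones beyond 1 unit below WT, and most rows have clones on both sides.

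With the 4 clones pooled as the knockout, no gene of the group passed the test against WT. In limma 0 of 31 had an adjusted p under 0.05, where 46 of 11154 tested genes did (0.412%). At an unadjusted p under 0.05 the share was 5 of 31 (16.1%), near the 15.7% of all tested genes. The median difference of KO minus WT was -0.01 log2 units over the 31 genes and -0.02 over all tested genes, with 15 genes positive and 16 negative. By role the medians were 0.14 for acetyl-CoA supply, -0.06 for the mevalonate enzymes, -0.06 for the sterol ring enzymes, -0.10 for the regulators and -0.15 for the fatty acid enzymes. These bulk libraries do not separate a change in all cells from a change in the share of some of them.

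The gene nearest to the threshold was FADS2, the delta-6 desaturase that starts the conversion of linoleic and alpha-linolenic acid into long polyunsaturated fatty acids. FADS2 had a log2 RPKM of 2.32, 2.29, 3.09 and 3.12 in KO1 to KO4, against 4.14, 4.37 and 4.6 in WT1 to WT3. All 4 clones lay more than 1 log2 unit below the lowest WT sample, and the early-stop clones lay below the late-stop ones. The group means of 2.7 ± 0.46 in KO and 4.37 ± 0.23 in WT (SD, n = 4 and 3) differed by -1.66 ± 0.26 (SE), a level 3.17-fold lower in KO. The unadjusted p was 0.000241 and the adjusted p in limma 0.0538, just above the threshold of 0.05. The adjusted p ran from 0.0378 to 0.338 over the alternative settings. FADS2 was called after quantile normalization (adjusted p = 0.039), on a log2(RPKM + 1) scale (0.0387), without KO2 (0.0378) and without KO3 (0.0494).

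FADS2 was also the one gene of the 31 called in each clone when clones were set against WT singly. Its differences were -2.05, -2.08, -1.28 and -1.25 in KO1 to KO4, with adjusted p of 0.000248, 0.000798, 0.00337 and 0.00439 in limma. These calls held under all 11 alternatives for each clone. Genes called lower in each of the 4 clones made up 2.3% of all tested genes. The tested genes within 5 Mb of FADS2 had median differences of -0.01, -0.27, -0.05 and -0.22 in KO1 to KO4, small beside its own.

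FADS1, the delta-5 desaturase that acts further along the same fatty acid route, is encoded next to FADS2 on chromosome 11 in the opposite direction. In RefSeq a FADS1 start at 61817003 (minus strand) and the first of several FADS2 starts, at 61816203 (plus strand), are 800 bases apart. Other FADS2 starts give other distances. FADS1 had 4.82, 4.78, 4.98 and 5.11 log2 RPKM in KO1 to KO4, against 5.17, 5.34 and 5.34 in WT1 to WT3. All clones lay below all WT samples, but by less than for FADS2, with a difference of -0.36 ± 0.12 (SE; adjusted p in limma 0.218). FADS1 was called lower in KO1 (-0.47, adjusted p = 0.0149) and KO2 (-0.50, adjusted p = 0.0163), with adjusted p of 0.0695 and 0.077 without WT2. The level of FADS2 minus that of FADS1 was -2.49, -2.49, -1.89 and -1.99 log2 units in KO1 to KO4, against -1.03, -0.96 and -0.74 in WT1 to WT3, with no overlap. In GENCODE the annotated bodies of the FADS genes share 29694 bases on opposite strands, and FEN1 shares 4265 bases with FADS2 on the same strand. No source used here says whether the counting used strand, so reads from the shared stretches may not be told apart.

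The remaining fatty acid enzymes, which build and shape the chains, went different ways. FASN, the fatty acid synthase itself, had 6.29, 6.25, 7.21 and 6.56 log2 RPKM in KO1 to KO4, against 6.20, 6.08 and 6.22 in WT1 to WT3. All clones lay above all WT samples, KO1 and KO2 only just, and the pooled difference of 0.41 ± 0.23 (SE) was not called (adjusted p in limma 0.422). It was 0.20 without KO3 and 0.15 with the median of neighbours within 5 Mb subtracted. FASN rose 2.06-fold in KO3 (log2 difference 1.04, adjusted p = 0.000896) and 1.32-fold in KO4 (adjusted p = 0.0327).

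ACACA, the acetyl-CoA carboxylase that makes malonyl-CoA for FASN, had 3.28, 2.99, 3.59 and 3.28 in the clones, against 2.86, 2.94 and 3.05 in WT. It was called higher in KO3 (0.64, adjusted p = 0.00953). ELOVL6, which extends palmitate-length chains, had 3.36, 4.04, 4.00 and 3.33 in the clones against 3.68, 3.63 and 3.54 in WT. KO2 and KO3 lay above every WT sample and were called higher (0.42 and 0.38, adjusted p = 0.0258 and 0.0356), while KO1 and KO4 lay below every WT sample and were not called. SCD had 7.95, 8.72, 8.04 and 8.58 in the clones against 8.53, 8.73 and 8.82 in WT. It fell in KO1 (-0.75, adjusted p = 0.0057) and in KO3 (-0.65, adjusted p = 0.0133), and the call of SCD in KO3 was lost without WT2 (adjusted p in limma 0.0664) and with neighbours subtracted (-0.40, adjusted p = 0.0575).

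**Figure D2:**
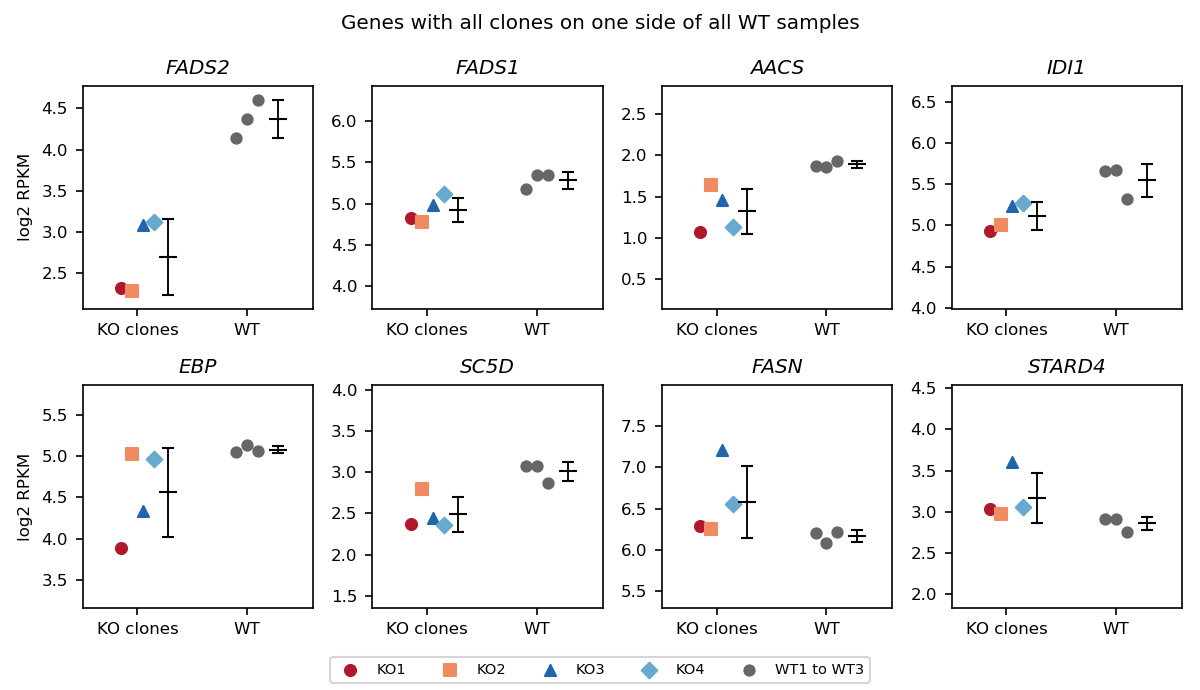
Log2 RPKM (y axis) in each of the 4 KO clones and 3 WT samples for the 8 genes whose clones and WT samples do not overlap; bars give the mean ± SD of each group, and every panel spans the same number of log2 units. FADS2 has the widest gap, between 3.12 in KO4 and 4.14 in WT1.

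The clones lay wholly above or wholly below the WT samples for 8 of 31 genes, beside 19% of all tested genes. Below WT were 6 (background 10.1%), namely AACS, IDI1, EBP, SC5D, FADS1 and FADS2, and above WT were 2 (background 8.88%), STARD4 and FASN. AACS, a cytosolic ligase that turns the ketone body acetoacetate into acetoacetyl-CoA, had 1.07, 1.64, 1.46 and 1.13 log2 RPKM in KO1 to KO4, against 1.87, 1.86 and 1.93 in WT1 to WT3. The pooled difference was -0.56 ± 0.18 (SE; adjusted p in limma 0.199), and AACS was called lower in KO1, KO3 and KO4 at -0.82, -0.43 and -0.76 (adjusted p = 0.00301, 0.0417 and 0.00817). Without WT2 the call in KO1 held, and the adjusted p was 0.148 in KO3 and 0.0506 in KO4.

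The other acetyl-CoA genes showed no such separation. ACLY, the ATP citrate lyase that supplies cytosolic acetyl-CoA from citrate, had 6.99, 6.65, 7.27 and 6.94 in the clones against 6.70, 6.74 and 6.66 in WT. It was called higher in KO1 (0.28, adjusted p = 0.0463) and KO3 (0.57, adjusted p = 0.00587). ACAT2, the thiolase that joins acetyl-CoA units, ranged from 4.51 to 4.90 in the clones and from 4.52 to 4.67 in WT and was called in no clone. ACAT2 shares 558 bases with TCP1 on the opposite strand.

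Each clone was then compared with WT by itself, using the WT spread as the error of a library, which assumes that a clone has no larger one. In KO1, 15 of the 31 genes were called, where 44.1% of all tested genes were; 3 rose (background 19.2%) and 12 fell (background 24.9%). In KO2, 9 were called (background 33.5%), 2 higher and 7 lower (backgrounds 15.5% and 18%). In KO3, 16 were called (background 34.1%), 9 higher and 7 lower (backgrounds 14.2% and 19.9%). In KO4, 5 were called (background 24.8%), 2 higher and 3 lower (backgrounds 10.4% and 14.4%).

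The medians differed in sign between clones. The 31 genes had a median difference of -0.17 (KO1), -0.05 (KO2), 0.13 (KO3) and 0.06 (KO4), while over all tested genes it lay between -0.02 and 0 in every clone. At least 1 clone called 25 of the 31 genes (80.6%, beside 70.5% of all tested genes), and 13 genes (41.9%, beside 21.4%) were called in exactly 2 clones. With the values as deposited, ACAT2, MVK, FDFT1, HSD17B7, DHCR7 and SREBF2 were called in none. HMGCS1, PMVK, CYP51A1 and MSMO1 were called higher in one clone and lower in another, 4 of 31 beside 12.8% of all tested genes. With the median of neighbours within 5 Mb subtracted, HMGCS1, PMVK and MSMO1 were called in KO1 alone, and CYP51A1 was called higher in KO1 and KO3. These 4 comparisons share the WT samples. Of the 45 calls over the 4 clones, 16 held under every alternative setting and 23 were lost when WT2 was left out, with adjusted p in limma of 0.0506 to 0.149. The lost calls were ACLY, FADS1, IDI1, MSMO1 and SCAP in KO1, and CYP51A1, ELOVL6, FADS1, FDPS, HMGCS1, IDI1 and NSDHL in KO2. They were AACS, CYP51A1, ELOVL6, LSS, PMVK, SC5D and SCD in KO3, and AACS, FASN, SC5D and SQLE in KO4. Without WT2, KO1 had 10 of the 31 called, KO2 had 2, KO3 had 9 and KO4 had 1, where 27.7%, 15.6%, 15.3% and 10.3% of all tested genes were called. Without WT3, KO4 had 11 called, where 35.6% of all tested genes were.

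Among the mevalonate enzymes, HMGCS1, the cytosolic HMG-CoA synthase, moved both ways. It had 5.97, 5.05, 5.06 and 5.70 log2 RPKM in KO1 to KO4, against 5.41, 5.61 and 5.35 in WT1 to WT3. KO1 lay above every WT sample and was called higher (0.51, adjusted p = 0.0168). KO2 and KO3 lay below every WT sample, with a call in KO2 (-0.40, adjusted p = 0.0479).

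PMVK, which phosphorylates mevalonate phosphate, had 4.77, 5.23, 5.86 and 5.50 in the clones against 5.42, 5.45 and 5.50 in WT. It fell in KO1 (-0.69, adjusted p = 0.00171) and was called higher in KO3 (0.40, adjusted p = 0.0196). MVD, the decarboxylase that makes isopentenyl diphosphate, had 4.35, 4.25, 5.09 and 4.41 against 4.41, 4.42 and 4.49. KO3 was the 1 clone called with the values as deposited, 1.57-fold higher (adjusted p in limma 0.00416).

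IDI1, the isomerase of the isoprenoid unit, had 4.93, 5.01, 5.23 and 5.27 in KO1 to KO4, against 5.66, 5.67 and 5.32 in WT1 to WT3. All clones lay below WT, KO3 and KO4 only just below WT3, and the pooled difference was -0.44 ± 0.14 (SE; adjusted p in limma 0.206). IDI1 was called lower in KO1 and KO2 (-0.62 and -0.54, adjusted p = 0.0202 and 0.0404). Genes within 5 Mb of IDI1 had medians of -0.16, -0.72, -0.18 and -0.44 in KO1 to KO4, and with them subtracted the pooled difference was -0.07 (adjusted p in limma 0.886) and KO2 stood at 0.17. FDPS, which condenses the units into farnesyl diphosphate, had 5.92, 6.03, 6.63 and 6.55 in the clones against 6.39, 6.49 and 6.56 in WT. It was called lower in KO1 and KO2 (-0.57 and -0.45, adjusted p = 0.00609 and 0.0203), and was not called in the late-stop clones. With the neighbours' medians of -0.36 and -0.19 subtracted, the values of FDPS in KO1 and KO2 were -0.20 and -0.25 and neither was called (adjusted p in limma 0.162 and 0.0951). RUSC1-AS1 overlaps 3804 bases of FDPS on the opposite strand, at a mean log2 RPKM of -1.39.

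In the sterol ring segment, SQLE had 8.55, 8.46, 8.62 and 9.0 in KO1 to KO4, against 8.43, 8.62 and 8.38 in WT1 to WT3. KO4 alone was called, 1.43-fold higher (0.52, adjusted p = 0.0273). MSMO1, the methyl sterol oxidase, had 5.29, 6.36, 6.0 and 5.89 in the clones against 5.59, 5.88 and 5.63 in WT. It fell in KO1 (-0.41, adjusted p = 0.0474) and rose in KO2 (0.66, adjusted p = 0.0132). The rise in KO2, where its neighbours had a median of 0.41, was 0.27 and not called with these subtracted (adjusted p in limma 0.156). CYP51A1, the lanosterol demethylase, had 1.23, 0.95, 1.96 and 1.25 against 1.5, 1.36 and 1.44, and was called lower in KO2 (-0.48, adjusted p = 0.0367) and higher in KO3 (0.53, adjusted p = 0.0273). TM7SF2 rose 2.28-fold in KO3 (1.19, adjusted p = 0.0121) from a low level.

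NSDHL, a sterol dehydrogenase, had 5.68, 5.37, 5.97 and 5.98 in the clones against 5.92, 5.84 and 5.67 in WT and was called lower in KO2 (-0.44, adjusted p = 0.0329). HSD17B7, a reductase of the same demethylation complex, had 2.04, 2.28, 2.52 and 2.48 against 1.93, 2.24 and 2.26 and was called in no clone. Of the rest, LSS, the lanosterol synthase, was called lower in KO3 alone (-0.42, adjusted p = 0.0274), and FDFT1, the squalene synthase, and DHCR7, a late reductase, ranged from 5.61 to 6.20 in the clones and from 5.70 to 6.13 in WT.

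The late enzymes EBP and SC5D, the sterol isomerase and the desaturase that follows it, lay below WT in all clones. EBP had 3.89, 5.03, 4.34 and 4.97 log2 RPKM in KO1 to KO4, against 5.05, 5.13 and 5.06 in WT1 to WT3. The clones fell into separate levels, with KO2 and KO4 just below WT and calls in KO1 (-1.19, adjusted p = 0.000167) and KO3 (-0.74, adjusted p = 0.00255), and the pooled difference of -0.52 ± 0.28 (SE) was not called (adjusted p in limma 0.397). SC5D had 2.37, 2.80, 2.45 and 2.36 against 3.08, 3.07 and 2.87. It was called lower in KO1, KO3 and KO4 (-0.64, -0.56 and -0.65, adjusted p = 0.00899, 0.0198 and 0.0147), with a pooled difference of -0.51 ± 0.14 (SE; adjusted p in limma 0.170).

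The genes around both also lay lower in the clones where EBP and SC5D were called. Genes within 5 Mb of SC5D on chromosome 11 had median differences from WT of -0.64, -0.67, -0.56 and -0.75 in KO1 to KO4, and genes within 5 Mb of EBP on the X chromosome of -0.56, 0.06, -0.59 and 0.10. With the neighbours' median subtracted in each library, SC5D differed from WT by 0.14 ± 0.14 (SE) over the clones, and EBP kept its call in KO1 and lost it in KO3. The part of the neighbourhood in these values was not tested.

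The regulators of the pathway showed their clearest differences in KO1. INSIG1, which retains the SREBP complex in the endoplasmic reticulum and is itself an SREBP target, had 5.21, 6.67, 5.90 and 6.53 log2 RPKM in KO1 to KO4, against 6.41, 6.61 and 6.49 in WT1 to WT3. It fell 2.45-fold in KO1 (-1.30, adjusted p = 0.000215) and 1.52-fold in KO3 (-0.60, adjusted p = 0.00864), and KO2 and KO4 were level with WT. Both calls held under all 11 alternatives, and genes within 5 Mb of INSIG1 had medians of -0.54 in KO1 and -0.10 in KO3.

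SREBF1, which encodes the SREBP form tied mainly to fatty acid genes, had 4.16, 4.91, 4.68 and 4.89 in KO1 to KO4, against 4.78, 4.82 and 5.23 in WT1 to WT3. It was called lower in KO1 only (-0.79, adjusted p = 0.0151). SREBF2, tied mainly to sterol genes, had 5.26, 5.39, 5.05 and 5.36 against 5.07, 5.15 and 5.33, and was called in no clone as deposited. SCAP, the escort of both, had 4.09, 3.92, 3.57 and 3.87 against 3.62, 3.63 and 3.77 and was called higher in KO1 (0.42, adjusted p = 0.0221). KO1 therefore had lower INSIG1, SREBF1, SCD and FADS2 with higher HMGCS1 in one library. INSIG1, SCD and FADS2 were also called lower in KO3, and FADS2 in every clone. Of the mevalonate and sterol ring enzymes, only HMGCS1 was called higher in KO1, while PMVK, IDI1, FDPS, MSMO1, EBP and SC5D were called lower.

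STARD4, a carrier that moves cholesterol between membranes and is an SREBP target, had 3.03, 2.97, 3.61 and 3.06 in KO1 to KO4, against 2.91, 2.91 and 2.76 in WT1 to WT3. All clones lay above all WT samples, 3 of them by little, and KO3 stood out and was called (0.76, adjusted p = 0.00476), while the pooled difference of 0.31 ± 0.17 (SE) was not (adjusted p in limma 0.423).

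The promoters of these genes were read for the motifs known from SREBP-regulated genes, since the factor acts there together with NF-Y. RefSeq promoter windows on GRCh38.p14, which run across the annotated start, were matched for 27 of the 31 genes and not for ACAT2, FDFT1, SQLE and FASN. The sterol regulatory element core TCACNCCAC, on either strand, was found in 1 of the 27 (3.7%), SREBF2, and in 1.41% of the 9566 table genes with a window, where a gene can have more than one. CCAAT, the letters that NF-Y binds, on either strand, was found in 20 of the 27 (74.1%), against 43.5% of those table genes; counted by window, it was in 34.6% of all 35116. The motifs share no letter in the SREBF2 window, a match is a description of the sequence, and a missing match says only that those letters are not in this window. Stretches of 100 bases follow for the SREBF2 window and for 6 genes called in at least 1 clone, written 5′ to 3′ on the gene's strand, with capitals at TCACNCCAC and at CCAAT or its reverse complement ATTGG.
SREBF2, chr22:41832927-41833026, plus strand: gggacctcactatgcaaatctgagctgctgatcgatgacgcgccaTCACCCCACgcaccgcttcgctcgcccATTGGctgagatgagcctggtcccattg
INSIG1, chr7:155297663-155297762, plus strand: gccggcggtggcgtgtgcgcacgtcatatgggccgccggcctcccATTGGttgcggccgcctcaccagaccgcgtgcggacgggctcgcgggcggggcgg
MVD, chr16:88663196-88663295, minus strand: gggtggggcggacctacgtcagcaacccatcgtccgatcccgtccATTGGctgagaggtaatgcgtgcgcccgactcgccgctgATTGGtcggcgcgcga
FDPS, chr1:155308645-155308744, plus strand: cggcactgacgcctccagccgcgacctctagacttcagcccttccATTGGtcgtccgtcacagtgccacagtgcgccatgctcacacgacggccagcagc
MSMO1, chr4:165327439-165327538, plus strand: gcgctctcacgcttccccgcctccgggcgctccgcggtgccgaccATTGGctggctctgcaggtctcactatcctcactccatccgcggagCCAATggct
STARD4, chr5:111512642-111512741, minus strand: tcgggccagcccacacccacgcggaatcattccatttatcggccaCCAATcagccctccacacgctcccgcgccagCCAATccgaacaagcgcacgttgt
SCD, chr10:100346983-100347082, plus strand: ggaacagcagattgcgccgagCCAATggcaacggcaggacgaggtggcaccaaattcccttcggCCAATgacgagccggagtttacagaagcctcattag
Within these printed stretches SREBF2 holds both motifs, and MVD, MSMO1, STARD4 and SCD hold CCAAT at a pair of places. The full windows of MVD, MSMO1 and FDPS hold CCAAT at further places. Genes with CCAAT did not move as one here: in KO3 MVD and STARD4 rose while INSIG1 and SCD fell.

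Positions were then set beside the differences, because stretches of several chromosomes were shifted in the clones. The 31 genes lie on 15 chromosomes, with 5 on chromosome 11 and 4 on chromosome 17. The median difference of the tested genes within 5 Mb of each member ran from -0.86 to 0.45 in KO1 and from -0.72 to 0.41 in KO2. The range was -0.59 to 0.45 for KO3 and -0.75 to 0.32 for KO4. Members had the sign of their neighbours in 24, 20, 21 and 20 of 31 cases in KO1 to KO4. No share over all tested genes is given here to set beside these counts. Across the 31 genes, which share libraries and in part chromosomes, Pearson's r between a member and its neighbours was 0.46, 0.42, 0.46 and 0.63, given as a description.

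ACLY, ACACA and FASN, which form the direct route to palmitate, lie on chromosome 17 in stretches with positive medians in all clones. The neighbours of ACLY had medians of 0.40, 0.35, 0.37 and 0.32 in KO1 to KO4, those of ACACA 0.38, 0.33, 0.34 and 0.26, and those of FASN 0.26, 0.18, 0.36 and 0.24. With the neighbours subtracted, the calls of ACLY in KO1 and KO3 and of ACACA in KO3 were lost, and FASN kept its call in KO3 and lost it in KO4. Of the 45 calls, 22 were lost with the neighbours subtracted, and KO1 then had 13 of the 31 called, KO2 had 4, KO3 had 9 and KO4 had 3, where 31.0%, 26.1%, 24.1% and 18.1% of all genes were called. The lost calls were ACLY, FDPS, SC5D and SCAP in KO1, and CYP51A1, ELOVL6, FADS1, FDPS, HMGCS1, IDI1, MSMO1 and NSDHL in KO2. They were AACS, ACACA, ACLY, EBP, ELOVL6, PMVK, SC5D and SCD in KO3, and FASN and SC5D in KO4. CYP51A1 turned to a call of 0.66 in KO1 (adjusted p in limma 0.0146), where its neighbours had a median of -0.86. Other calls gained by the subtraction were FDFT1 in KO1 (-0.46) and SREBF2 in KO3 (-0.39). In KO2, ACLY (-0.40), MVD (-0.38) and TM7SF2 (0.85) gained calls. With the same subtraction AACS, EBP and FADS2 lay below WT in all clones (3 of 31, beside 8.33% of genes), and MVK, HSD17B7 and STARD4 above (3 of 31, beside 8.5%).

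**Figure D3:**
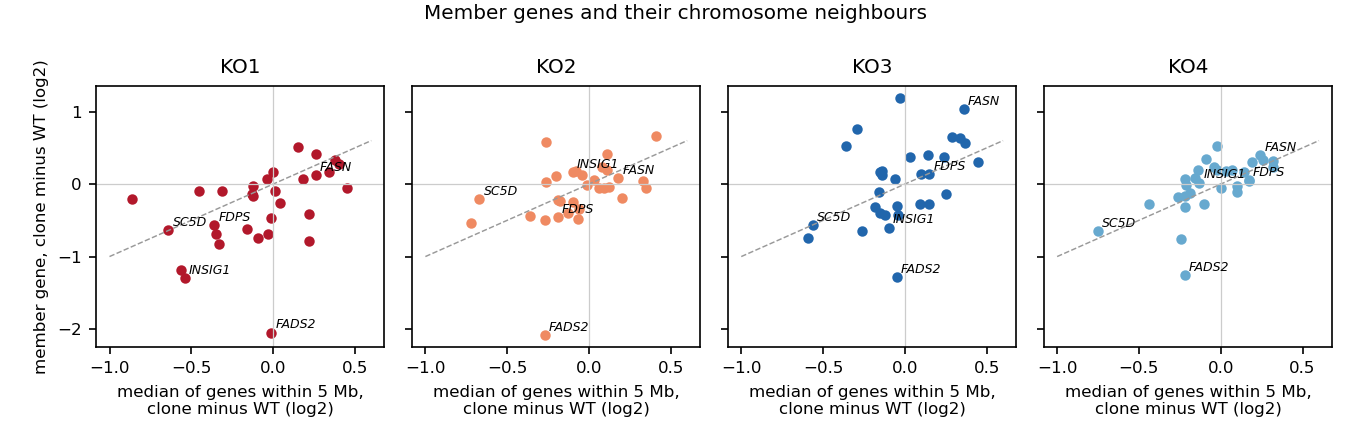
Each of the 31 genes in KO1, KO2, KO3 and KO4: median difference from WT of the tested genes within 5 Mb (x axis, log2 units) against the gene's own difference from WT (y axis, log2 units), with a dashed line where they are equal. SC5D lies on the line in KO1 and KO3, and FADS2 lies far below it in every clone.

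The late-stop clones were compared with the early-stop clones to see whether the genes differ with the place of the stop. With limma 0 of 31 genes passed, where 0 of 11154 tested genes did (0%). At an unadjusted p under 0.05 there were 5 of 31 (16.1%), beside 3.91% of all tested genes. The median difference of late-stop minus early-stop was 0.25 log2 units over the 31 genes and 0.01 over all tested genes, and 23 of 31 (74.2%) were positive, beside 51.5%. Both late-stop clones lay above both early-stop clones for 12 genes, namely PMVK, MVD, IDI1, FDPS, SQLE, CYP51A1, NSDHL, HSD17B7, STARD4, FASN, FADS1 and FADS2 (38.7%, beside 10%). SCAP was the 1 gene with both below (background 9.84%). A shift of cholesterol genes in this direction was known from earlier results on the same libraries, so these counts are no independent evidence of it.

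By role, the median late-stop minus early-stop difference was 0.37 for the mevalonate enzymes, 0.20 for the sterol ring enzymes, 0.27 for the fatty acid enzymes, 0.18 for acetyl-CoA supply and 0.07 for the regulators. The smallest unadjusted p belonged to FDPS, with 6.63 and 6.55 log2 RPKM in KO3 and KO4 against 5.92 and 6.03 in KO1 and KO2. Its difference was 0.61 ± 0.13 (SE), with an adjusted p in limma of 0.99. Next in order of p came FADS2 with a difference of 0.80 ± 0.18, PMVK with 0.68 ± 0.20, FASN with 0.62 ± 0.22 and NSDHL with 0.45 ± 0.16, each with an adjusted p of 0.99 in limma. In FADS2 the early-stop clones lay below the late-stop clones and these below WT, while in the late-stop clones NSDHL and FASN lay above the highest WT sample and FDPS did so in KO3 alone.

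FDPS and PMVK sit beside the edited gene itself. FDPS ends 14.6 kb from ASH1L on chromosome 1 and PMVK lies 398.3 kb from it, and the genes within 5 Mb of each had late-stop minus early-stop medians of 0.43 and 0.42. With neighbours subtracted, the difference was 0.18 ± 0.10 (SE) for FDPS, 0.26 ± 0.16 for PMVK and 0.21 ± 0.14 for NSDHL, but 0.54 ± 0.17 for FASN and 0.80 ± 0.18 for FADS2. The median over the 31 genes was then 0.19. Both late-stop clones lay above both early-stop clones for 9 genes (beside 9.35% of genes), of which ACLY, ACAT2 and ACACA were not among the 12 named above. Without 1 clone, the difference of FASN as deposited was 0.29 (KO3 left out) or 0.94 (KO4 left out), that of PMVK 0.45 (KO1 left out) or 0.91 (KO2 left out), and that of NSDHL 0.30 (KO2 left out).

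**Figure D4:**
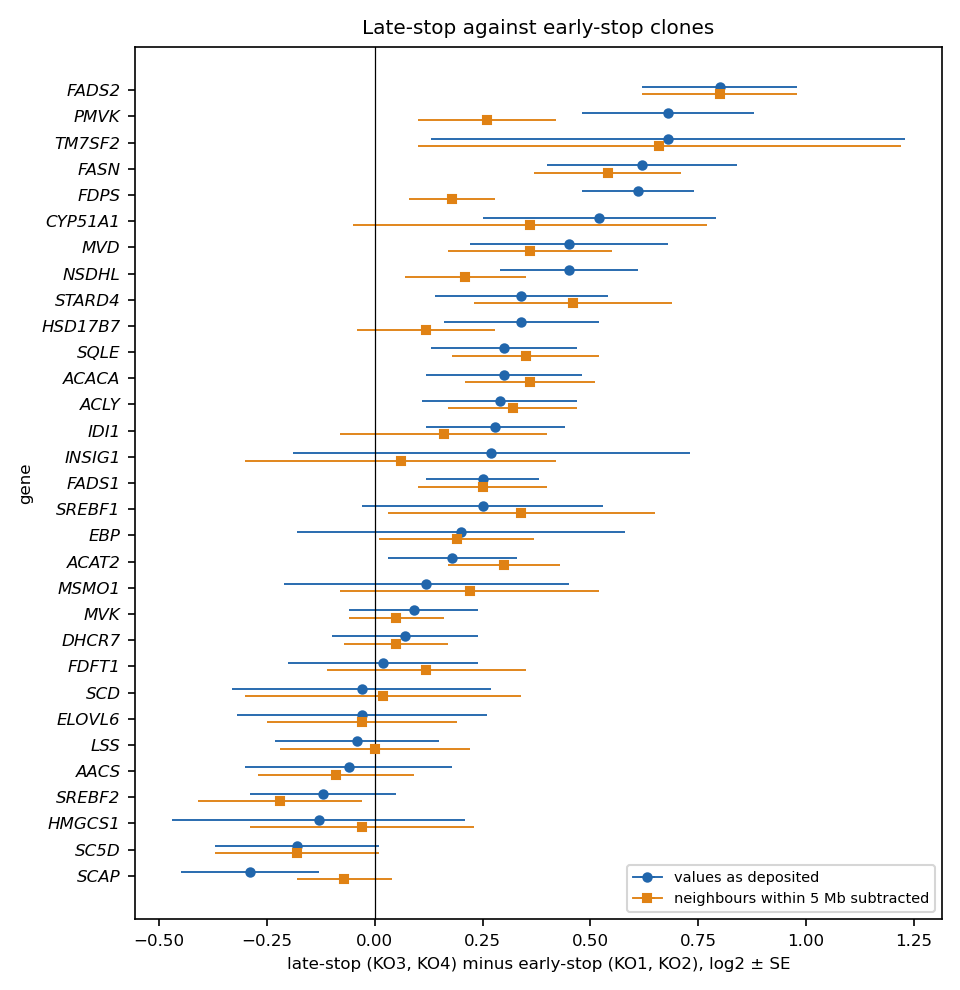
Late-stop minus early-stop difference (x axis, log2 units, bars ± SE) for each of the 31 genes (rows), as deposited (blue circles) and with the median of neighbours within 5 Mb subtracted (orange squares). FADS2 stays at 0.80 in both, and FDPS moves to 0.18 with the neighbours subtracted.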

How the data were processed

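RNA was measured in 3 WT samples and 4 ASH1L KO clones of BHT-101. Total RNA was column-purified, treated with DNase and turned into TruSeq libraries, per the labels. The authors deposited 1 table of log2 RPKM with 13142 genes. The tools named in the submitters' processing notes are edgeR, HTSeq 0.11.2, STAR 2.5.3a and Trim Galore 0.4.1, and the build is hg38; the annotation, prior count and use of strand are not given in the sources used here. Nothing shows whether the clones were cultured more than once, so p-values measure the spread between these libraries.

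Genes with log2 RPKM above 0 in at least 3 of 7 libraries (11154) were fitted with limma 3.58.1 in R 4.3.3 without further scaling or pseudocount (moderated variances with a trend, Benjamini-Hochberg adjustment over all tested genes, called at an adjusted p under 0.05). KO was compared with WT, each clone with WT, and late-stop with early-stop clones (stop codons after or before residue 1500), the last in a fit where the WT samples share the estimate of spread. The procedure was tested on simulated data. For a single clone against WT, every simulated library had the spread of the WT samples. That simulation therefore could not check the single-clone calls where clones vary more than WT samples. Positions came from GENCODE release 29, in which 12528 genes were matched, 199 of them by synonym; neighbours are tested genes within 5 Mb. For the position-centred values the neighbours' median was subtracted in each library where at least 5 were present. Promoter sequences are from RefSeq.

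The members, gene lists and the rule for named genes were chosen with earlier results of these data known. Values in every library are given for the regulators, for genes with all clones on one side of WT, for the 3 highest and 3 lowest per clone, for the 5 smallest unadjusted p of late-stop against early-stop, and for the 3 largest and smallest SDs among clones. Some further members were named after their values were seen. Alternatives covered the filter, normalization, scale, variance model, position and the samples left out.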

Additional observations from a re-analysis of the deposited data

Results flagged for a closer look

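STARD4, the cholesterol carrier, had a log2 RPKM of 3.61 in KO3, far from the other clones at 3.03, 2.97 and 3.06 and from the WT samples at 2.91, 2.91 and 2.76. The gap between KO3 and the nearest clone was 0.856 of the range of the clones, above Dixon's critical value for 4 samples. It was the 1 gene of 31 examined with such a sample; chance gives about 1 in 20 groups. Genes within 5 Mb of STARD4 had a median difference from WT of -0.29 in KO3.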

How the results depend on the processing

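In all, 16 alternative settings were computed. For KO against WT, 0 members were called in the main fit and 1, FADS2, after quantile normalization and on the log2(RPKM + 1) scale; leaving out 1 sample gave 0 to 1. Over all genes, 46 were called in the main fit, 114 after quantile normalization (56.1% of them higher, against 41.3%), 75 on the log2(RPKM + 1) scale, 30 with the stricter filter (log2 RPKM above 1), 1 with neighbours subtracted, and 0 without any one WT sample. Without KO2 there were 236, without KO3 87 and without KO4 1. With neighbours subtracted the members called numbered 4 in KO2, 9 in KO3 and 3 in KO4; leaving out 1 WT sample gave 10 to 17 in KO1, 2 to 13 in KO2, 9 to 18 in KO3 and 1 to 11 in KO4, where 27.7% to 52.3%, 15.6% to 43.6%, 15.3% to 44.0% and 10.3% to 35.6% of all tested genes were called. With neighbours subtracted, members with all clones below WT numbered 3 (beside 8.33% of genes), against 6 as deposited (beside 10.1%). That comparison was chosen after seeing the data. Late-stop against early-stop called 0 members in all settings, though 293 genes were called without KO1 and 279 without KO2. In KO1, 53.7% of calls were higher after quantile normalization, against 43.5%. Some members called in the main fit or with neighbours subtracted turned in sign with the subtraction. These were ACLY in KO1 (-0.11), CYP51A1 in KO1 (0.66), IDI1 in KO2 (0.17) and SC5D in KO3 (0.0) and KO4 (0.09). Signs also turned where neither fit gave a call, as for SC5D in KO2 (-0.21 as deposited, 0.46 with neighbours subtracted). The cause was not tested. The numbers in the titles gave no sign of a pairing: same-numbered deviations correlated at 0.05965, 0.06629 and -0.01245, and differently numbered ones between -0.09929 and 0.08103. A pairing small beside the differences between clones would not show in these values. With the replicate block 0 members and 0 genes were called, and FADS2 was at -1.80 (adjusted p in limma 0.281). Depth is unknown, so counting error for the low genes TM7SF2, CYP51A1 and AACS cannot be given.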

Other observations

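Genes around the pathway were read from lists of the same kind, which were chosen with earlier results known. None of their tested members was called in KO against WT with limma, for 8 sterol sensing, 14 sterol transport, 13 isoprenoid, 14 fatty acid activation (of 17 listed), 11 glycerolipid and 13 fatty acid oxidation genes. At an unadjusted p under 0.05 there were 12 of these 73 (16.4%), near the 15.7% of all tested genes. AGPAT3, an acyltransferase of phospholipid synthesis, had the largest difference, with log2 RPKM of 1.86, 0.96, 1.28 and 0.12 in KO1 to KO4 against -1.05, -1.04 and -1.06 in WT1 to WT3. All clones lay above WT by more than 1 log2 unit, and the pooled difference was 2.10 ± 0.41 (SE; adjusted p in limma 0.085). AGPAT3 was called higher in each clone (adjusted p in limma from 3.95e-05 in KO1 to 0.0049 in KO4). Its WT values lay below the filter cutoff of 0 log2 RPKM, so it was tested only through its levels in the clones. The separation and the calls rest on those same levels and are no independent support. CHKA, the choline kinase of the same list, was called lower in KO1 and KO3 (-0.90 and -0.76, adjusted p = 0.00564 and 0.0151).

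Of the 13 fatty acid oxidation genes, which break chains down in mitochondria and peroxisomes, 8 fell and 0 rose in KO1. There were 1 lower and 4 higher in KO2, 2 lower and 2 higher in KO3, and 5 lower and 0 higher in KO4. Of all tested genes, 24.9%, 18%, 19.9% and 14.4% were called lower in KO1 to KO4, and 19.2%, 15.5%, 14.2% and 10.4% higher. HADHA, a subunit of the mitochondrial trifunctional protein, had 5.68, 5.87, 5.83 and 5.61 in the clones against 6.10, 6.15 and 6.21 in WT (adjusted p in limma 0.149). In sterol transport, NPC1, which exports cholesterol from lysosomes, had 4.23, 4.08, 3.97 and 4.61 in the clones against 4.64, 4.79 and 5.07 in WT and was called lower in KO1, KO2 and KO3, with neighbours within 5 Mb at medians of 0.13, -0.27, -0.28 and -0.42. STARD3, which links late endosomes to the endoplasmic reticulum, had 3.49, 3.46, 3.56 and 3.56 against 3.18, 3.14 and 3.14, with neighbours at 0.38, 0.34, 0.36 and 0.28.

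RABGGTB, a subunit of the enzyme that attaches isoprenoids to Rab proteins, had 4.76, 4.62, 4.86 and 4.79 in the clones against 5.19, 5.15 and 5.21 in WT and was called lower in each clone, with neighbours at -0.14, -0.14, 0.03 and -0.20. ACSL4, which activates polyunsaturated fatty acids, had 4.29, 4.53, 4.35 and 4.23 against 4.69, 4.82 and 4.68 and was called lower in KO1, KO3 and KO4, with neighbours at -0.43, -0.36, -0.61 and -0.51. MID1IP1, a regulator of acetyl-CoA carboxylase, fell in KO1 and KO3 (-1.20 and -1.02, adjusted p = 0.00292 and 0.00848), with neighbours at -0.60, 0.28, -0.86 and 0.14 in KO1 to KO4.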
